A study of Homo sapiens with 6 samples.

Results

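The regions described here are all LaminB1 regions that were called on chromosome 3, taken by chromosome alone from 4 region lists, 1 per LaminB1 library. They number 4450 of 49022 regions on chromosomes 1 to 22 and X. There were 1117 and 1094 in the double loss lists (1 and 2) and 990 and 1249 in the control lists (1 and 2). LaminB1 was mapped by CUT&RUN, in which an antibody directs a nuclease to cut out and release nearby chromatin, in HCT116, a human colorectal carcinoma line. Both groups derive from a line in which TOP2A carries the mAID degron tag, and both were arrested in G1 by 28 h in 2 uM palbociclib. The double loss group (TOP2A mAID/TOP2B -/-, named DKO in the labels) lacked TOP2B by a CRISPR/Cas9 deletion and received 500 uM auxin for 8 h, by which up to 95% of TOP2A is eliminated according to the series text. The control group is labelled wildtype; the treatment protocol gives it as the TOP2A mAID line, and names no auxin for it. Per group there were 2 libraries of LaminB1 and 1 of IgG; the labels do not say that replicates were separate cultures, nor how many clones the TOP2B deletion line represents, so p-values measure the spread between these libraries, which may be technical. TOP2B deletion, TOP2A degradation, auxin and the control library differ together between the groups and cannot be told apart.

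LaminB1 is a B-type lamin of the mesh that lines the inner nuclear membrane, and sequence near it forms large lamina-associated domains, which are mostly gene-poor, late-replicating and silent. Type II topoisomerases pass one DNA duplex through another and so release supercoils and tangles; cells have TOP2A, which is most abundant in dividing cells, and TOP2B, which is present throughout the cycle. TOP2B is itself a gene of chromosome 3. Chromosome 3 is a large metacentric chromosome, whose p arm carries the fragile site in FHIT and gene-dense blocks, and whose q arm ends in the block of TP63, the claudin genes and the mucin genes.

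To show what kinds of promoter lay inside or outside the regions, the 250 bases upstream of a RefSeq start are printed for 5 genes (GRCh38.p14, whose primary chromosomes are those of hg38), 5' to 3' on the gene's strand, with CG dinucleotides in capitals. The start of ZIC1, a zinc-finger transcription factor of neural development (chr3:147409115-147409364, plus strand), lay in regions of both double loss lists but of no control list. So did a start of NAALADL2, a very long gene of the glutamate carboxypeptidase family (chr3:174859084-174859333, plus strand). This NAALADL2 start is an internal one, since the gene begins at 174440982. The start of LRRC3B, a leucine-rich repeat membrane protein (chr3:26622522-26622771, plus strand), lay in both control lists but in no double loss list. The body of LRRC3B was still 96.3% and 75.9% covered in the double loss lists, and 93.2% and 89.8% in the control lists. The start of NLGN1, the postsynaptic adhesion protein neuroligin-1 (chr3:173395702-173395951, plus strand), lay in all 4 lists, and that of TOP2B (chr3:25664373-25664622, minus strand) in none.
ZIC1: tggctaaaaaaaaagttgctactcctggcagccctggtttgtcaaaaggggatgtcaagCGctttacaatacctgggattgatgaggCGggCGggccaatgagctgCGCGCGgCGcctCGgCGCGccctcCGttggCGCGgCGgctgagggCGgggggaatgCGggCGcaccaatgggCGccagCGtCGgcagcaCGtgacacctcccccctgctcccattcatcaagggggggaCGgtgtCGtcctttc
NAALADL2: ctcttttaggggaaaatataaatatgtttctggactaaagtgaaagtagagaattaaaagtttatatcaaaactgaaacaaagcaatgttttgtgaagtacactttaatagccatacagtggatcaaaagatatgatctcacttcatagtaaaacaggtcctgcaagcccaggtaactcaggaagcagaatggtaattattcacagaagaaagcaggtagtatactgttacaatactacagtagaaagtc
LRRC3B: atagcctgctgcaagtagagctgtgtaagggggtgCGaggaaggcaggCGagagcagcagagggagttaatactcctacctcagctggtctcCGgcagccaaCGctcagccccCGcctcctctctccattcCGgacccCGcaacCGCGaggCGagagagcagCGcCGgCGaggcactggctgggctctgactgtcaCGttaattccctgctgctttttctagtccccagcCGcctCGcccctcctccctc
NLGN1: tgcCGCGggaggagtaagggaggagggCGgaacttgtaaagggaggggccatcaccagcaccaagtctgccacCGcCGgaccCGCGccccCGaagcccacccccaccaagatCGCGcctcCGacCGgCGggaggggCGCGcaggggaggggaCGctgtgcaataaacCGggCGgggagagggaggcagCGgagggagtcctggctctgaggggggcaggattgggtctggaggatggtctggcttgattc
TOP2B: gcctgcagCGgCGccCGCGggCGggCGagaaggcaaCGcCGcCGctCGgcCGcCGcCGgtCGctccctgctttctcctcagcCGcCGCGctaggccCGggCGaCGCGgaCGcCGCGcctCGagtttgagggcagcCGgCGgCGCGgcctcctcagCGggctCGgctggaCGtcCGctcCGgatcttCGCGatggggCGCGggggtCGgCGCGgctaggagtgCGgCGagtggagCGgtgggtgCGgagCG
The stretches held 23 CG for ZIC1, 0 for NAALADL2, 16 for LRRC3B, 19 for NLGN1 and 46 for TOP2B. Of 1363 RefSeq starts of 934 of the 1066 protein-coding genes of the chromosome, 44 lay in all 4 lists, 23 in the double loss lists only, 9 in the control lists only and 1164 in no list. Starts in the double loss lists only were 1.69% of all on chromosome 3 and 0.563% on the other chromosomes. For the control lists only these shares were 0.660% and 0.486%. A further 123 of the 1363 lay in other combinations of lists. The median stretch had 3 CG in all 4 lists, 2 in the double loss lists only, 11 in the control lists only and 18 in no list, against 16 over all starts of the chromosome. At least 1 CG, the 2-letter motif searched on 1 strand since it is its own complement, was in 95.5%, 73.9%, 100% and 97.4% of the stretches of these classes, and in 96.6% of all of them. On the other chromosomes the median was 3, 4, 5 and 17 CG in the same classes, in the same order. At least 1 CG was there in 88.8%, 93.2%, 90.1% and 97.5% of the stretches. Of the starts of chromosome 3, the 9 in the control lists only came from 5 genes, and LRRC3B gave 5 of the 9. TATAAA, searched on the gene's strand in the same 250 bases, was in 4 of the 23 starts of the double loss lists only (17.4%; 2 of the 4 are starts of SERPINI2), in 6.82% of those in all 4 lists, in 0 of the 9 of the control lists only and in 5.58% of all starts. On the other chromosomes it was in 15.4% of the starts in the double loss lists only and in 13.3% of those in all 4 lists. There it was also in 9.90% of those in the control lists only, in 5.59% of those in no list and in 6.20% of all.

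The first question was how much of chromosome 3 lay in LaminB1 regions. Regions covered 60.03 and 60.48 Mb in the double loss lists, and 52.75 and 48.74 Mb in the control lists. As a share of the 198 Mb chromosome this was 30.4% ± 0.161 in the double loss group and 25.6% ± 1.43 in the control group (SD, n = 2 each), a difference of 4.80 percentage points. Neither double loss library overlapped the controls; a two-sided exact permutation test gave p = 0.333, the smallest p that a permutation test of 2 libraries against 2 can give. Among the 22 autosomes and X, chromosome 3 had the second highest share in both double loss lists and the fifth highest in both control lists, and the second largest increase, after chromosome 4. Chromosome 20 stood apart, at 12.6% and 12.9% in the double loss lists and 35.6% and 33.5% in the control lists, so comparisons with the other autosomes are also given without it, an alternative chosen after seeing the data.

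The arms did not share this difference evenly. They were divided in the middle of a stretch of 1982 kb (chr3:91736001-93718000) with no region in any list and no annotated protein-coding gene. On the q arm, regions covered 30.2% and 30.6% in the double loss lists and 24.0% and 22.6% in the control lists, a difference of 7.10 points (exact permutation p = 0.333). On the p arm they covered 30.4% and 30.4% in the double loss lists and 29.6% and 26.9% in the control lists, a difference of 2.18 points (exact permutation p = 0.333). The p arm difference was 0.821 points without control 2 and 3.54 points without control 1. The q arm share over the p arm share, a ratio chosen after its values were seen, was 0.992 and 1.01 in the double loss lists and 0.812 and 0.841 in the control lists. In the control lists the p arm was thus the more covered arm, and in the double loss lists the arms had nearly equal shares.

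**Figure D1:**
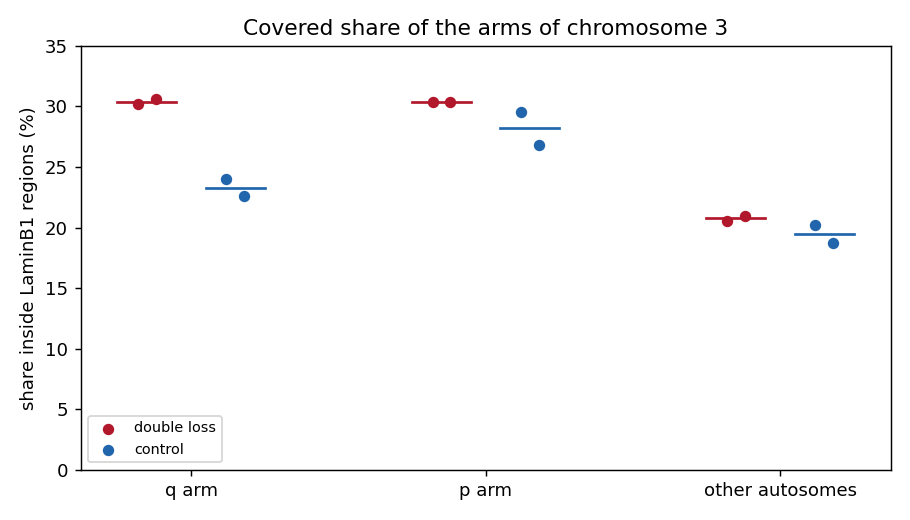
Share of each arm of chromosome 3, and of all other autosomes, inside LaminB1 regions (percent, linear axis from 0). Points are libraries and bars are means of 2; the groups stand farthest apart on the q arm, at 30.4% in double loss and 23.3% in control.

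Each list covers a different total length, so the arms were also set against the other autosomes of the same list. The q arm had 1.47 and 1.46 times the covered share of the other autosomes in the double loss lists, and 1.19 and 1.21 times in the control lists (exact permutation p = 0.333). For the p arm the ratios were 1.48 and 1.45 in the double loss lists and 1.46 and 1.44 in the control lists, which overlap (exact permutation p = 0.667). Without chromosome 20 the q arm ratios were 1.45 and 1.45 in the double loss lists and 1.21 and 1.23 in the control lists, and the p arm ratios, 1.47 and 1.43 in the double loss lists and 1.49 and 1.47 in the control lists, overlapped with a mean difference of the opposite sign. The groups did not overlap on the q arm under either choice.

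Regions were broad in all lists. Their median width was 31 and 32 kb in double loss, and 30 and 23 kb in control (exact permutation p = 0.333). The widest region spanned 688 and 1412 kb in double loss, and 685 and 537 kb in control. The region of 1412 kb in double loss 2 (chr3:172848001-174260000) ran over SPATA16, a spermatogenesis gene, and most of NLGN1, where the other 3 lists had separate regions. Regions of at least 200 kb on the q arm numbered 29 and 28 in the double loss lists, against 23 and 15 in the control lists; on the p arm they numbered 13 and 12, against 13 and 9. Control 2 stood apart from the other 3 libraries, with more and narrower regions on the p arm. It had 746 there (median 21 kb), against 574 to 592 with a median of 30 kb in each of the others. This was not particular to the p arm. On the other autosomes control 2 had 12347 regions (median 22 kb), against 9780 to 11291 (medians of 28 to 30 kb). The number of regions overlapped between the groups.

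Regions of chromosome 3 held 792468 and 803968 LaminB1 reads in the double loss lists and 635116 and 625375 in the control lists; depth outside regions is unknown, since the lists give reads inside regions only. Per kb of region this was 13.20 and 13.29 LaminB1 reads in the double loss lists and 12.04 and 12.83 in the control lists. The control library, against which regions were scored, gave 8.28 and 8.27 reads per kb in the double loss lists, and 6.51 and 6.53 in the control lists. Control library reads were therefore denser in the double loss group, and their part in the region calls was not tested. Against the other autosomes of the same list, LaminB1 density on chromosome 3 was 0.986 and 0.989 times in the double loss lists and 0.967 and 0.967 times in the control lists (exact permutation p = 0.333). The same ratio of the control library was 0.929 and 0.930 in the double loss lists and 0.934 and 0.931 in the control lists. Without chromosome 20 the LaminB1 ratio was 0.986 and 0.989 in the double loss lists and 0.971 and 0.970 in the control lists, and the control library ratio was lower in double loss, at 0.930 and 0.931 against 0.949 and 0.946 in the control lists; its part in the LaminB1 ratio was not tested. The deposited log2 fold had a median of 0.54 and 0.53 in the double loss lists and 0.56 and 0.62 in the control lists. In it the authors set LaminB1 against the control library on a scale of each list's own, so these medians are not comparable between lists.

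Next, the chromosome was read in 5 Mb windows. Of 40 windows, 34 had at least 1% covered in 1 library and were tested with limma, with p-values adjusted over the windows of all chromosomes. The covered share was higher in the double loss group in 16 windows and lower in 2 (adjusted p under 0.05), against 44.9% of all windows of the genome called, 33.3% higher and 11.6% lower. The q arm held 12 of the higher windows, out of 17 tested, and 1 lower window. Among the 12 is the nearly empty window from 100 to 105 Mb, at 0.98% and 2.96% in the double loss lists and 0% in both control lists. It reached the 1% minimum in double loss 2 alone, so its call says little. The p arm held 4 higher, out of 16 tested, and 1 lower. Both double loss values were above both control values in 20 windows and below them in 3; the genome-wide shares of such windows were 51.1% and 21.7%. These calls rest on the double loss replicates: without double loss 1, 1 window was called higher and 0 lower, and without double loss 2, 0 and 0, where 12 and 10 windows had an unadjusted p under 0.05. Without control 1, 16 were called higher and 1 lower, and without control 2, 12 and 1.

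**Figure D2:**
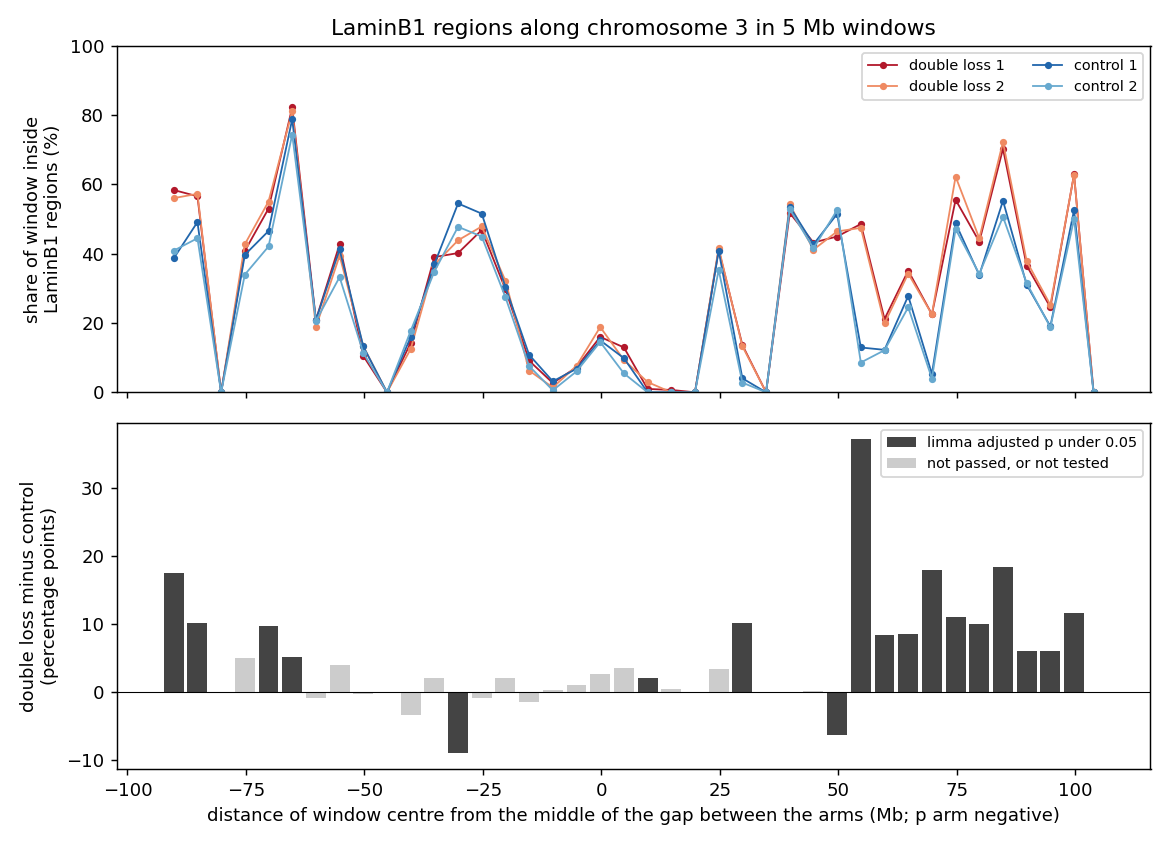
Top, share of each 5 Mb window inside LaminB1 regions (percent) for each of the 4 libraries, by distance from the gap between the arms; bottom, difference of the group means in percentage points, dark where the limma adjusted p was under 0.05. From about 55 Mb beyond the gap to the last covered window of the q arm, every double loss point lies above both control points, most of all in the window of 48.6% and 47.5% against 12.9% and 8.60%.

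One window changed more than any other. Between 145 and 150 Mb, 48.6% and 47.5% lay in regions in the double loss lists and 12.9% and 8.60% in the control lists, a difference of 37.3 points (limma adjusted p = 1.47e-05). It held 57 and 58 regions in the double loss lists and 25 and 21 in the control lists, with a median width of 31 and 27 kb in double loss and 22 and 17 kb in control. This window contains the scramblase genes PLSCR2 and PLSCR4, ZIC1 and ZIC4, the angiotensin receptor gene AGTR1 and the carboxypeptidase genes CPB1 and CPA3. The adjusted p became 0.0689 without double loss 1 and 0.0727 without double loss 2, at 36.7 and 37.8 points. The next window down, from 140 to 145 Mb, went the other way: 45.0% and 46.4% in the double loss lists and 51.5% and 52.6% in the control lists, a difference of -6.35 points (limma adjusted p = 0.0376). A switch of direction thus fell between adjacent windows. When the 50% of regions with the highest log2 fold were kept, the window from 140 to 145 Mb was not called lower.

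The 10 windows from 145 to 195 Mb were all called higher. Their differences ran from 5.91 to 37.3 points. Between 160 and 165 Mb, a poorly covered window, the share was 22.5% and 22.5% in the double loss lists and 5.32% and 3.98% in the control lists (17.9 points, limma adjusted p = 3.09e-05). Between 175 and 180 Mb, one of the most covered windows of the arm, it was 70.3% and 72.3% in the double loss lists and 55.3% and 50.7% in the control lists (18.3 points, limma adjusted p = 0.000482). Between 170 and 175 Mb, around NLGN1, the median region was 113 and 147.5 kb wide in the double loss lists and 33 and 23 kb in control. Higher windows were therefore found at both low and high starting coverage. Nearer the gap, the window from 120 to 125 Mb had 13.7% and 13.3% in the double loss lists and 4.04% and 2.80% in the control lists (limma adjusted p = 0.000276).

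On the p arm the higher windows lay in its outer part. The first 5 Mb, which hold the neural adhesion genes CHL1, CNTN6 and CNTN4, had 58.4% and 56.1% in the double loss lists and 38.7% and 40.9% in the control lists (17.4 points, limma adjusted p = 0.000528). The window from 25 to 30 Mb was the most covered of the chromosome in all 4 lists, at 82.2% and 81.2% in the double loss lists and 78.8% and 74.4% in the control lists (limma adjusted p = 0.0464). In contrast, the window from 60 to 65 Mb, with most of FHIT, PTPRG, CADPS and SYNPR, was lower in double loss: 40.2% and 43.9%, against 54.5% and 47.8% in the control lists (a difference of -9.11 points, limma adjusted p = 0.0305; 0.118 without control 1). When the 50% of regions with the highest log2 fold were kept, the window from 60 to 65 Mb was not called lower. From 65 to 100 Mb no window passed the test in either direction.

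The share was 0% in all 4 lists in 5 windows, those starting at 10, 45, 110, 125 and 195 Mb, which hold 40, 100, 36, 53 and 38 protein-coding genes. Some gene-poor sequence was also little covered. The longest stretch with no region in any list was 11.7 Mb (chr3:41809001-53532000) and overlapped 220 protein-coding genes, among them the chemokine receptor cluster. The stretch chr3:103131001-106927000 (3.80 Mb) had no region and overlapped 2 protein-coding genes. The windows from 75 to 90 Mb, with 1 to 11 genes each, were covered at 0.580% to 10.8% in every list, although they include the long neural genes ROBO1, ROBO2 and CADM2. Across the 40 windows, the number of protein-coding genes and the covered share had a Pearson r of -0.31 and a Spearman rho of -0.27; windows share libraries and neighbours, so this is a description. The end of the q arm beyond 193573000, where the mucin genes MUC4 and MUC20 lie, had no region in any list.

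In 100 kb bins, 1036 bins of chromosome 3 were tested, and 11 were called higher and 1 lower by limma, against 0.938% of all bins of the genome called, 0.642% higher and 0.296% lower. With untransformed shares, quantile-normalized shares or the upper 50% of regions, 0 bins were called in either direction (204, 188 and 196 with an unadjusted p under 0.05). Leaving out 1 library gave 22 to 120 higher and 0 to 12 lower. Of the 12 called bins, 5 had no spread within either group. Among these 5, the bin from 148500001 was 93% and 93% covered in the double loss lists and 0% and 0% in the control lists. The bin of RARB from 24800001 was 100% and 100% covered in the double loss lists and 96% and 96% in the control lists, and the 1 bin called lower, from 25000001, was 96% and 96% covered in the double loss lists and 100% and 100% in the control lists. A gap of at least 50 points between the lowest double loss and the highest control library, which uses no variance, was found in 40 bins (36 on the q arm), against 1.59% of all bins; the opposite gap was found in 0 bins, against 1.25%. The bins with the widest gaps were between 145 and 150 Mb and in NAALADL2. From 146900001, the bin was 96% and 92% covered in the double loss lists and 0% and 0% in the control lists. With all libraries, both double loss values were above both control values in 330 of the 1036 bins and below them in 111. Genome-wide the shares of such bins were 24.5% and 15.6%.

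Sequence was then sorted by the lists that held it, in 1 kb steps and without a test. All 4 lists shared 32.2 Mb of the 78.6 Mb in any list (41.0%, against 37.2% on the other autosomes and 37.9% without chromosome 20). The longest such stretch was chr3:180099001-180590000 (491 kb), which overlaps no protein-coding gene. Next was chr3:189188001-189604000 (416 kb), over TPRG1 and the start of TP63, the p53-family gene of stratified epithelia. Then came chr3:193168001-193459000 (291 kb; PLAAT1, ATP13A5 and ATP13A4), chr3:28437001-28687000 (250 kb; ZCWPW2) and chr3:192188001-192434000 (246 kb; FGF12, a fibroblast growth factor homologue of neurons). Of these 5 stretches, 4 lie on the distal q arm, and all 5 lie in windows called higher.

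Sequence called in the double loss pair but in no control list, here named gained, came to 6.74 Mb. Sequence called in the control pair but in no double loss list, here named lost, came to 1.68 Mb. For scale, sequence in only 1 list of each group summed to 1.29 to 2.05 Mb over the 4 such pairs, so lost sequence lay within the range of the mixed pairs. Leaving out 1 library gave 10.7 to 12.5 Mb of gained and 3.76 to 4.82 Mb of lost sequence, since fewer lists then have to be met. Gained sequence was 11.9% of the sequence in any list on the q arm and 5.21% on the p arm, against 6.20% on the other autosomes (6.39% without chromosome 20). Lost sequence was 1.30% on the q arm and 2.99% on the p arm, against 4.65% on the other autosomes (3.66% without chromosome 20). The window from 145 to 150 Mb alone held 1481 kb of gained sequence. Of 636 gained stretches, 170 touched no region of a control list at either end and made up 45.6% of the gained length, 295 touched one at 1 end (37.6%) and 171 at both ends (16.9%). On the other autosomes these shares of the gained length were close to this, at 49.6%, 37.2% and 13.2%.

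The longest gained stretches were 102 kb (chr3:175218001-175320000) and 92 kb (chr3:174906001-174998000), both inside NAALADL2. At the first, the region called in double loss 1 was 167 kb wide with 2138 LaminB1 and 1231 control library reads, and that in double loss 2 was 217 kb wide with 2783 and 1603 reads. The others, of 81 kb (chr3:162029001-162110000), 69 kb (chr3:148492001-148561000) and 63 kb (chr3:146896001-146959000), overlap no protein-coding gene. The longest lost stretch, of 32 kb (chr3:60203001-60235000), lies in FHIT, with 432 and 372 LaminB1 reads in the regions of control 1 and 2. Lost stretches of 31 kb (chr3:71613001-71644000), 29 kb (chr3:117696001-117725000), 28 kb (chr3:144749001-144777000) and 25 kb (chr3:64690001-64715000) overlap no protein-coding gene. Lost stretches were shorter than gained ones, at a longest of 32 kb against 102 kb.

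Read density was compared in sequence called in all 4 lists, in the 31 windows with at least 40 kb of it. This minimum was chosen after the values were seen. Each 1 kb step took the mean density of its whole region, so sequence outside the shared part enters. Region widths differ between lists, and their part in these values was not tested. The LaminB1 difference (log2 of reads per kb, double loss over control) had a median of 0.10 and ran from 0.00 to 0.26; that of the control library had a median of 0.36 and ran from 0.31 to 0.46. Library totals are unknown, so only differences between windows can be read. The window from 185 to 190 Mb had the highest LaminB1 value, 0.16 above the median, and its control library value was at the median. The window from 140 to 145 Mb, which was called lower, was 0.07 below the median. Across the windows, the LaminB1 difference and the difference in covered share had a Pearson r of 0.58 and a Spearman rho of 0.75, and the control library difference gave 0.03 and -0.19. All points come from the same 4 libraries, so these are descriptions.

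**Figure D3:**
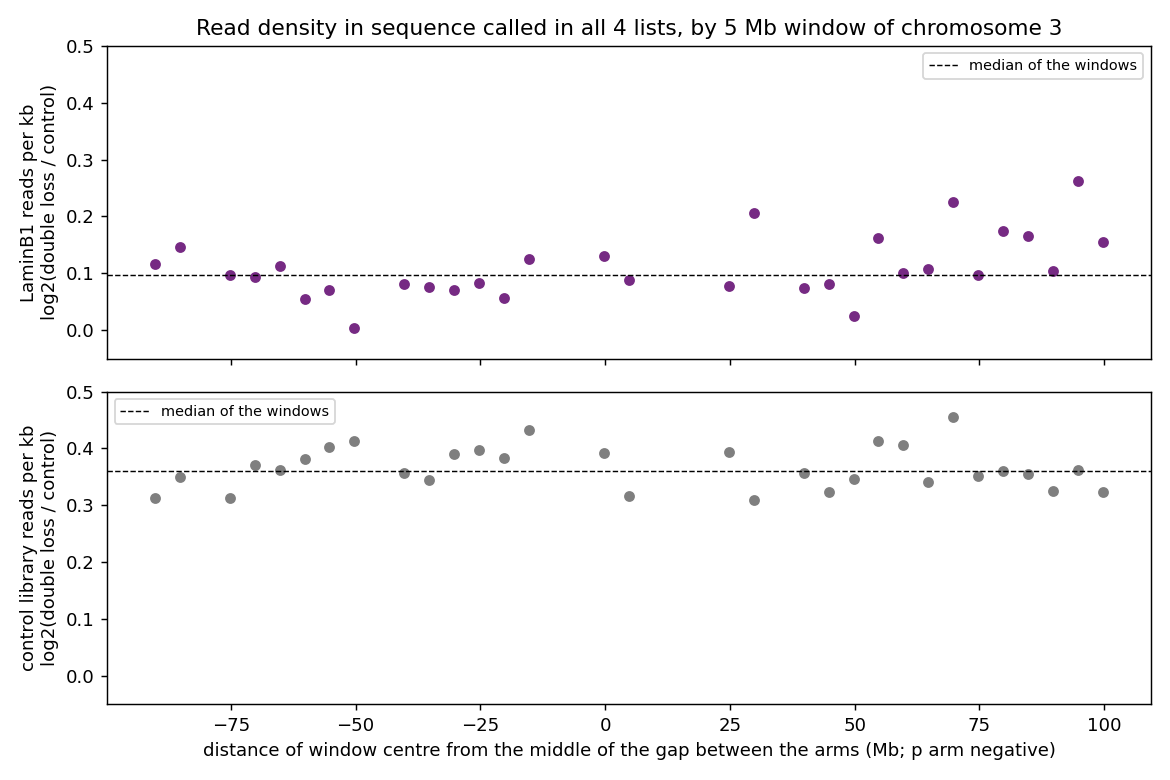
Reads per kb in sequence called in all 4 lists, as log2 of double loss over control, for LaminB1 (top) and the control library (bottom), in 5 Mb windows by distance from the gap between the arms. Each 1 kb step has the mean density of its whole region. LaminB1 points run from 0.00 to 0.26, with the highest ones on the q arm, and control library points from 0.31 to 0.46; dashed lines are medians.

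Protein-coding genes were compared by the share of the gene body inside regions. Of 1066 on the chromosome, 222 had any covered sequence in 1 library and were tested. The share was called higher in 3 genes and lower in 0 (limma, adjusted p under 0.05), against 2.65% of all genes tested, 1.67% higher and 0.981% lower, while 38 had an unadjusted p under 0.05. All 3 are on the q arm, which holds 138 of the 222 genes tested. The share in both double loss lists was above both control lists in 65 of the 222 genes (29.3%, against 21.5% of genes tested genome-wide). It was below them in 22 (9.91%, against 13.9% genome-wide). At least 50% of the body was covered in all 4 lists for 66 of the 222 genes, in the double loss lists only for 16 and in the control lists only for 3. Genome-wide the shares of such genes among all genes tested were 27.9%, 4.94% and 3.56%. Of those 16, 14 are on the q arm.

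The called genes, which were taken after their values were seen, were ZIC1, CLDN16 and PLSCR4. None of them passed when 10 kb was added on each side (limma adjusted p of 0.114, 0.103 and 0.0956), and with quantile-normalized shares ZIC1 alone passed (0.0187, against 0.0505 for CLDN16 and 0.0679 for PLSCR4). ZIC1 was 100% and 100% covered in the double loss lists and 0% and 0% in the control lists (limma adjusted p = 0.0142); its regions held 897 LaminB1 reads over 69 kb in double loss 1 and 302 over 27 kb in double loss 2. The region of double loss 2 had a low log2 fold of 0.30, and when the 50% of regions with the highest log2 fold were kept, the difference was 50 points (limma adjusted p = 0.547). CLDN16, a claudin of kidney tight junctions, was 100% and 100% covered in the double loss lists and 26.0% and 30.9% in the control lists (limma adjusted p = 0.0209; 0.0598 without double loss 1 and 0.0642 without double loss 2). One region of 372 kb covered it in double loss 1 and one of 187 kb in double loss 2, where control 1 had regions of 20 and 12 kb and control 2 of 38, 12 and 23 kb. PLSCR4, of the phospholipid scramblase family, was 35.2% and 32.3% covered in the double loss lists and 0% and 0% in the control lists (limma adjusted p = 0.0419; 0.0613 without control 1 and 0.0577 without control 2). Leaving out libraries moved the number of genes called higher to between 5 and 27, and lower to between 3 and 7.

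**Figure D4:**
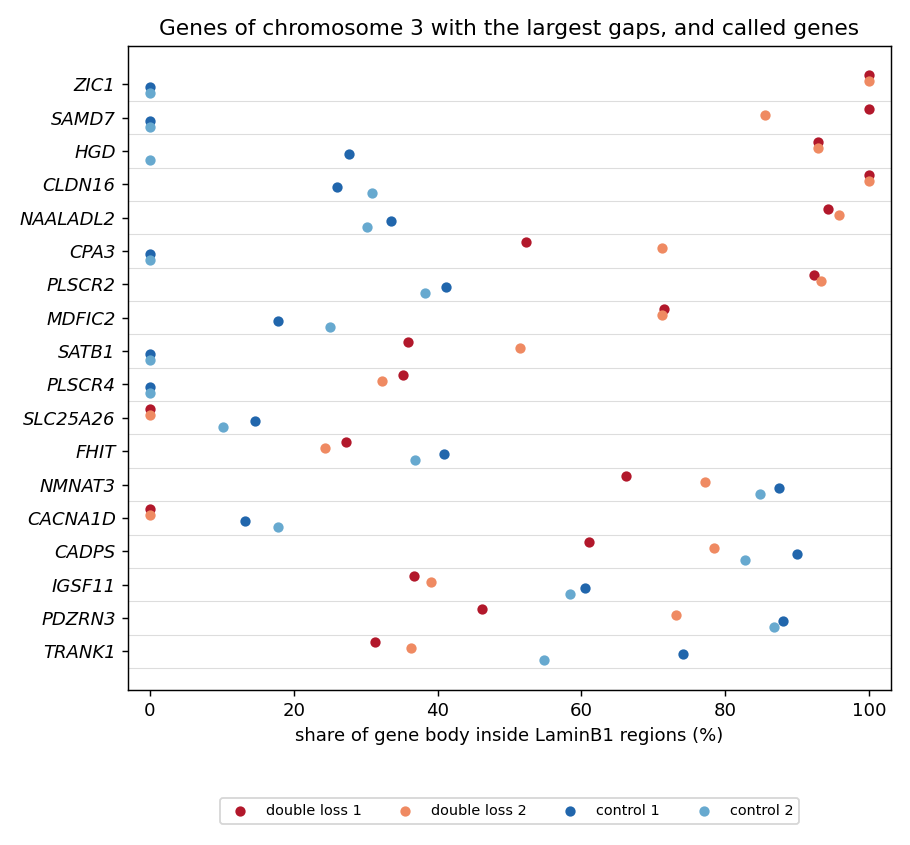
Share of the gene body inside LaminB1 regions (percent) in each library, for the genes with the widest gaps between the groups and the called genes, ordered by the difference of means. ZIC1 stands at 100% in both double loss libraries and 0% in both controls, and NAALADL2 at 94.4% and 95.8% against 33.6% and 30.2%.

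Among genes of at least 20 kb, the widest gaps upward were those of SAMD7, a photoreceptor gene (100% and 85.5% in the double loss lists, 0% and 0% in the control lists), CLDN16 and HGD, an enzyme of tyrosine breakdown (92.9% and 92.9% in the double loss lists, 27.7% and 0% in the control lists). When the 50% of regions with the highest log2 fold were kept, the difference turned to -13.9 points for HGD, and SAMD7, CPA3 and SATB1 had no covered sequence left. NAALADL2, at 1369567 bp one of the longest genes of the chromosome, was 94.4% and 95.8% covered in the double loss lists and 33.6% and 30.2% in the control lists (63.3 points, limma adjusted p = 0.0597; 0.0477 without control 1). CPA3, the mast cell carboxypeptidase, had 52.4% and 71.2% in the double loss lists and 0% and 0% in the control lists. PLSCR2 had 92.3% and 93.3% in the double loss lists and 41.1% and 38.3% in the control lists. MDFIC2 had 71.5% and 71.2% in the double loss lists and 17.8% and 25.1% in the control lists. SATB1, an organiser of chromatin loops, had 35.9% and 51.5% in the double loss lists and 0% and 0% in the control lists. Of these 8, CLDN16 alone passed the test.

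The widest gaps downward were smaller, and none passed the test. IGSF11, an immunoglobulin-family adhesion gene, had 36.7% and 39.1% in the double loss lists and 60.5% and 58.4% in the control lists (limma adjusted p = 0.314). TRANK1 had 31.3% and 36.3% in the double loss lists and 74.1% and 54.8% in the control lists. CACNA1D, an L-type calcium channel subunit, had 0% and 0% in the double loss lists and 13.2% and 17.9% in the control lists. FHIT had 27.3% and 24.4% in the double loss lists and 40.9% and 36.9% in the control lists (limma adjusted p = 0.433). The others were PDZRN3, a ubiquitin ligase, SLC25A26, a mitochondrial carrier, NMNAT3, an enzyme of NAD synthesis, and CADPS, a vesicle priming protein, with differences of means of -27.8, -12.4, -14.4 and -16.7 points; among the 50% of regions with the highest log2 fold, PDZRN3 and NMNAT3 turned to 8.52 and 56.4 points, and TRANK1 and SLC25A26 had 0 points. All but IGSF11 and NMNAT3 are on the p arm.

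Gene groups of the chromosome were described by lists chosen with earlier results of these data known. Of the 222 covered genes of the chromosome, 29.3% were above both controls and 9.91% below, against which the counts of each list can be read. Of 20 developmental transcription factors, 10 had covered sequence, 7 were above both controls and 1 was called higher (ZIC1). Over all 20, uncovered members included, the mean covered share was 41.1% ± 0.638 in the double loss group and 29.6% ± 1.05 in the control group (SD, n = 2). ZIC4 had 82.7% and 61.2% in the double loss lists and 33.9% and 29.1% in the control lists. It lies next to ZIC1, so its values are not independent of it. The differences of means of ZIC1 and ZIC4 were 100 and 40.5 points, so this locus weighs heavily in the mean of the list. MECOM, MITF and RARB were highly covered in all lists, while SOX2, BCL6, GATA2 and HES1 had no covered sequence. Of 9 claudin and epithelial genes, 5 had covered sequence, 4 were above both controls and 1 was called higher (CLDN16). CLDN1, a claudin of skin and other epithelia, had 100% and 100% in the double loss lists and 25.7% and 0% in the control lists. TMEM207 had 100% and 100% in the double loss lists and 84.3% and 4.24% in the control lists, and TP63, which both lists hold, had 98.7% and 100% in the double loss lists and 86.9% and 84.0% in the control lists. CLDN1 and TMEM207 overlap or adjoin CLDN16, so their values are not independent of it. All 4 genes above both controls lie between 189596746 and 190449901, so this list mostly describes 1 part of the q arm. CLDN18, the remaining covered member, lies elsewhere on the arm. It had 32.1% and 6.27% in the double loss lists and 0% and 70.8% in the control lists. The median difference of covered genes was 55.8 points in the epithelial list (5 genes) and 9.59 points in the transcription factor list (10 genes). It was 24.0 in the olfactory receptor list (8), 22.7 in the plasma protein list (3) and 7.23 in the chemokine receptor list (2). Neither of these 2 chemokine receptor genes was above or below both controls. The median difference was 3.44 in the Eph, semaphorin and plexin list (3) and 3.00 in the neural adhesion list (12). It was 2.64 in the synapse list (14) and 1.56 in the fragile site and giant list (8). Over all covered genes it was 4.01 points on the chromosome, 6.52 on its q arm and 0.768 genome-wide.

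The 12 neural adhesion genes all had covered sequence. Of these, 3 were above both controls and 1 below, near the shares of all covered genes of the chromosome, and none was called. CHL1, a neural cell adhesion gene of the L1 family, had 64.1% and 56.9% in the double loss lists and 11.8% and 62.4% in the control lists, so that the controls themselves disagreed. CNTN4, a contactin, had 57.3% and 52.8% in the double loss lists and 31.3% and 39.2% in the control lists. NLGN1, CLSTN2 and LSAMP were covered at 71.0% or more in every list. Of 22 synapse and ion channel genes, 14 had covered sequence, 4 were above both controls, 3 below and none called. STXBP5L had 59.4% and 52.8% in the double loss lists and 20.7% and 11.6% in the control lists, CACNA2D3 had 67.9% and 62.3% in the double loss lists and 76.6% and 77.0% in the control lists, and SST, the somatostatin gene, was covered in double loss 1 alone. The fragile site and giant gene list had 8 of 10 covered, 2 above both controls and 1 below; ERC2, a presynaptic scaffold, had 66.7% and 61.9% in the double loss lists and 59.1% and 49.4% in the control lists. LPP and ZBTB20, also long genes of the q arm, had no covered sequence.

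Olfactory receptor genes near 98 Mb lie in short regions, and each gene is short. Of 10, 8 had covered sequence and 1 was above both controls; OR5H6 was fully covered in all 4 lists, while OR5H1 had 80.2% and 100% in the double loss lists and 48.9% and 0% in the control lists. OR5AC2 and OR5K1 were covered in double loss 1 alone. These receptor genes have near-identical copies, so reads of the members may be split between them. A list of 13 genes of plasma proteins also holds AGTR1, a receptor gene, and SLC2A2, a glucose transporter gene. In it 3 genes had covered sequence, and all 3 were above both controls: AGTR1 (9.09% and 55.4% in the double loss lists, 0% and 0% in the control lists), TF, the transferrin gene (43.8% and 38.6% in the double loss lists, 12.6% and 24.5% in the control lists), and PROS1 (36.7% and 53.5% in the double loss lists, 17.8% and 29.7% in the control lists). None was called.

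Uncovered genes were the rule, since 844 of the 1066 protein-coding genes of the chromosome (79.2%) had no covered sequence in any list. The 16 housekeeping genes and the 10 purinergic and related genes of 3q25, such as P2RY12 and P2RY1, were at 0% in all 4 lists. Of 13 chemokine receptor genes, 11 were at 0% in all 4 lists, a share near that of all genes; ACKR4 had 32.2% and 100% in the double loss lists and 100% and 0% in the control lists, and CX3CR1 had 3.28% in control 1 alone. Of 11 Eph, semaphorin and plexin genes, 3 had covered sequence and 1 was above both controls, EPHA6, with 17.7% and 14.2% in the double loss lists and 11.5% and 7.29% in the control lists. EPHB1, an ephrin receptor gene, was 96.8% and 95.9% covered in the double loss lists and 95.9% and 90.0% in the control lists. The purinergic block lies in the window from 150 to 155 Mb, which was itself called higher, at 21.2% and 19.9% in the double loss lists and 12.3% and 12.2% in the control lists (limma adjusted p = 0.00178).

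TOP2B (chr3:25597905-25664907), the gene deleted in the double loss line, was at 0% in all 4 lists, so its regions give no check of the deletion. It is an uncovered island in covered sequence. The nearest region upstream of it by coordinate ended 5.90 and 28.9 kb away in the double loss lists and 25.9 and 20.9 kb away in the control lists. The nearest one after it began 16.1 and 38.1 kb away in the double loss lists and 40.1 and 17.1 kb away in the control lists. RARB, the adjacent retinoic acid receptor gene, was 96.2% and 94.5% covered in the double loss lists and 95.3% and 95.7% in the control lists. THRB, the thyroid hormone receptor beta gene beyond it, had 89.7% and 85.0% in the double loss lists and 68.6% and 63.4% in the control lists (limma adjusted p = 0.219). NGLY1, on the other side of TOP2B, had 43.7% and 64.8% in the double loss lists and 31.0% and 14.1% in the control lists (limma adjusted p = 0.463).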

How the data were processed

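LaminB1 CUT&RUN of HCT116 cells gave paired reads of 75 bp, per the labels' protocols. Bowtie2 2.3.4.3, Picard and hg38 are named in the submitters' processing notes; the region caller is not given in the sources used here. The authors deposited 1 list of regions per LaminB1 library, on a 1 kb grid. Per the file headers, each region has counts of LaminB1 reads and of control library reads (whole numbers, not normalized), a p-value with its adjusted value, a score and a log2 fold. The deposited log2 fold is log2 of the count ratio minus 1 constant per list (0.07 and 0.08 in double loss, 0.27 and 0.32 in control, tested on the values). Regions were therefore ranked by it only within a list, and its medians, given per list, are not comparable between lists. Where 2 lists had a region with the same edges, the control library count was the same in 2 of 2 cases within each group and in 0 of 12 between groups, so the groups were scored against different control libraries. As samples, the IgG libraries were not analysed here. No per-sample column was left unused.

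Covered shares were computed in 1 kb steps (Python 3.11.15, numpy 2.4.6, pandas 2.3.3, scipy 1.17.1). Coordinates are from 1, on hg38; gene positions came from RefSeq GRCh38.p14, and 11 gene lists were described. No genome sequence was used, so base composition of regions was not analysed here. Shares of 5 Mb windows (at least 1% covered in 1 library), 100 kb bins (at least 5%) and bodies of covered protein-coding genes were compared over all chromosomes with limma 3.58.1 in R 4.3.3 (arcsine square root scale, trended variance, Benjamini-Hochberg, threshold 0.05) and tested on simulated data. Single values were compared by two-sided exact permutation tests over libraries. Genes were named by the 8 widest gaps per direction among genes of at least 20 kb, at most 1 per 1 Mb, with the 5 longest stretches per class and 3 members per gene list. The members and lists were chosen with earlier results of these data known. Alternatives left out each library, blocked on replicate number, kept the upper 50% of regions by log2 fold or those with an adjusted p of at most 0.01, dropped or merged regions at 10 kb, and changed bins, flanks, transformation and filter; leaving chromosome 20 out of the other autosomes was chosen after seeing the data. Same-numbered libraries did not deviate together (correlation 0.02 over bins of chromosome 3), so the numbers were not taken to pair them.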

Additional observations from a re-analysis of the deposited data

How the results depend on the processing

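Covered shares of the chromosome and of each arm, the ratios of the chromosome to other autosomes and of the q arm to the p arm, and the LaminB1 density ratio kept their direction under each alternative run on them. Leaving out each library gave differences of 3.79 to 5.81 points for the chromosome and 6.39 to 7.81 for the q arm; the upper 50% of regions gave 5.59 for the q arm and 3.53 for the p arm. With fewer lists to meet, gained sequence came to 10.7 to 12.5 Mb and lost sequence to 3.76 to 4.82 Mb when 1 library was left out. Leaving chromosome 20 out of the other autosomes moved the difference in their ratio from 0.148 to 0.108, and that in the LaminB1 density ratio from 0.0212 to 0.0168; the p arm ratio, whose groups overlap, then differed by -0.0283.

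Calls were less stable, and the cause was not tested. The 11 bins called higher and 1 called lower became 0 and 0 with the upper 50% of regions, with untransformed shares and with quantile-normalized shares (196, 204 and 188 bins with an unadjusted p under 0.05), 38 and 16 with 50 kb bins, and 4 higher with any covered bin kept. Leaving out libraries gave 22 to 120 higher and 0 to 12 lower. Windows called higher numbered 9 with the upper 50% of regions, with 1 lower. That 1 was neither of the 2 windows called lower with all regions. Most window calls were lost without either double loss library, as given above. Genes called higher numbered 6 with the upper 50% of regions, 1 with quantile-normalized shares, 0 with 10 kb flanks (42 unadjusted), and 5 to 27 without 1 library; genes called lower numbered 3 to 7 without 1 library.

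The replicate numbers were not taken to pair the libraries, but the correlation of 0.02 over bins of chromosome 3 cannot exclude a pairing. With the replicate block, 15 windows were called higher and 1 lower. In that setting 0 bins and 0 genes were called in either direction (168 and 25 with an unadjusted p under 0.05). There the limma adjusted p was 0.273 for ZIC1, 0.302 for CLDN16 and 0.410 for PLSCR4.

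Among genes not called, the difference turned with the upper 50% of regions for HGD (-13.9 points), PDZRN3 (8.52), NMNAT3 (56.4), NGLY1 (-8.52) and RARB (0.716). Leaving out libraries also turned RARB (-0.976 to 0.716), CHL1 (-1.86 to 48.8), ACKR4 (-33.9 to 66.1) and EPHA3 (-2.00 to 4.14). With 2 libraries a group and unknown totals, depth could not be equalized.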

Other observations

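Some regions of chromosome 3 had unusually dense reads in the control library too. Near 75.7 Mb, at FRG2C and ZNF717, which belong to families with near-identical copies, a region of 97 kb in double loss 1 had 17.7 LaminB1 and 15.8 control library reads per kb, and regions of 46 and 53 kb in control 2 had 17.8 and 19.9 LaminB1 and 11.8 and 13.9 control library reads per kb. Next to the gap between the arms, the 1 kb region from 91168001 had 67 LaminB1 and 45 control library reads in double loss 2, 48 and 24 in control 1, and 51 and 24 in control 2.

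The region over TPRG1 and TP63 was among the 5 densest in double loss 1, double loss 2 and control 1. It had 19.8 LaminB1 reads per kb over 498 kb in double loss 1 and 18.5 over 736 kb in double loss 2, and 15.7 over 462 kb in control 1 and 17.2 over 418 kb in control 2. Its control library reads were 11.1 and 10.2 per kb in the double loss lists and 8.68 and 8.94 in the control lists, above the mean of the chromosome in each list.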
